A study of Mus musculus with 4 samples.

Results

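The feedback inhibitors of receptor signalling described here are 10 genes: Spry1, Spry2 and Spry4 of the Sprouty family, Spred1 and Spred2, and the dual-specificity phosphatase genes Dusp1, Dusp2, Dusp5, Dusp6 and Dusp10. They were chosen by name, as all probe sets that the array annotation assigns to one of these genes alone, which gave 26 probe sets for the 10 genes, of 18193 genes named on the array. The choice of genes was made with earlier results of these data known. RNA came from 4 sorted bone marrow populations of mice, with 1 Affymetrix array for each of Fbw7-deficient LSK cells, wild-type LSK cells, Fbw7-deficient MP cells and wild-type MP cells. LSK cells (lineage marker negative, Kit positive, Sca1 positive) hold the hematopoietic stem cells and multipotent progenitors, and MP cells are Kit-positive, Sca1-negative myeloid progenitors. Fbw7, encoded by Fbxw7, is the substrate-binding subunit of an SCF ubiquitin ligase. Both genotypes had been given polyI:C, a double-stranded RNA that induces interferon, at 20 ug per g in 3 intraperitoneal injections, 2 weeks ahead of the harvest. Each genotype is a pool of marrow from 3 animals, from which both its LSK and its MP cells were sorted. The deleted part of Fbxw7, any Cre driver, and the strain, sex and age of the mice were not given in the sources used here.

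Growth factor and cytokine receptors such as KIT and FLT3 switch on RAS, which activates the kinases RAF, MEK and ERK in turn, and ERK drives the transcription of immediate early genes. Among the genes that this signal induces are brakes on it. Sprouty and Spred proteins act near the membrane on the steps from receptor to RAF, and Spred proteins bring the RAS inactivator neurofibromin to the membrane. DUSP proteins remove phosphate from the kinases themselves: DUSP6 acts on ERK in the cytoplasm, DUSP5 on ERK in the nucleus, DUSP2 and DUSP1 on nuclear MAP kinases, and DUSP10 mainly on JNK and p38. Transcripts of several of these brakes are short-lived, and their level is commonly read as a trace of recent pathway activity. The arrays measure RNA and neither kinase activity nor the proteins.

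The promoters of the members, for which RefSeq sequences of build GRCm38.p6 were at hand for 9 of the 10, are shown first, because all measured members shared the direction of their genotype difference. The 250 bases before the annotated start were searched on both strands for 7 motifs. These were TGACGTCA (the full cAMP response element), TGACG (its half-site) and TGANTCA (the site of the AP-1 factors FOS and JUN). Further motifs were CACGTG (the E-box that MYC and related factors bind), CCGGAA (a core of ETS factor sites), TATAAA (the TATA box) and the CArG box of serum response factor. Matches are in capitals, and a full cAMP response element holds its half-site on both strands. The first pair of sequences below are those with the most matches, and the others belong to the genes that passed 2-fold between genotypes.
Dusp1: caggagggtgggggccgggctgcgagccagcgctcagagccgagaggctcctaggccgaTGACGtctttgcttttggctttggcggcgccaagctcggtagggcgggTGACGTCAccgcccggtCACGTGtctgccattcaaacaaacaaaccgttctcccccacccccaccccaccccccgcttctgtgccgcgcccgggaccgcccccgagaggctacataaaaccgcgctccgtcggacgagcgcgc
Dusp5: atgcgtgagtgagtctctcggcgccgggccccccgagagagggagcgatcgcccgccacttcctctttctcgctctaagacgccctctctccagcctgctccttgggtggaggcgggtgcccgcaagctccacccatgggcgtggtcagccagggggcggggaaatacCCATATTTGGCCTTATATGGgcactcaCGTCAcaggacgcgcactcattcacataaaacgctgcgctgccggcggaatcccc
Spry1: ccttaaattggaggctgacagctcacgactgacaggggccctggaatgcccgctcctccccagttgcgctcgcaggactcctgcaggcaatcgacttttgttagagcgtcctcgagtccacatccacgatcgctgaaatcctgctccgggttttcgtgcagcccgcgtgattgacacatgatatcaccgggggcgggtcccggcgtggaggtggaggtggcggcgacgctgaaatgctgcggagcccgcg
Spry2: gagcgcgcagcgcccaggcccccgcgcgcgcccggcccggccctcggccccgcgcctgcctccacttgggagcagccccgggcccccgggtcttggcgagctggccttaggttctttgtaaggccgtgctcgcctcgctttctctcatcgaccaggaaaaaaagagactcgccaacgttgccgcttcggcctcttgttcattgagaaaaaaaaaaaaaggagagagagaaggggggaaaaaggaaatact
Dusp6: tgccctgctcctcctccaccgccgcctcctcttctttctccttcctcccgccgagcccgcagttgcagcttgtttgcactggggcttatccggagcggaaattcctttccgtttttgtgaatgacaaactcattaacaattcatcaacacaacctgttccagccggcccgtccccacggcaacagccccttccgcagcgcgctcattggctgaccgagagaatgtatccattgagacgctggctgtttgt

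The Dusp1 promoter (chr17:26508473-26508722, minus strand) held 1 full cAMP response element, 143 to 136 bases before the start, a further half-site and 1 E-box. The Dusp5 promoter (chr19:53528895-53529144, plus strand) held 2 CArG boxes that adjoin each other, from 82 to 63 bases before the start, and 1 half-site. No match was found in the Spry1 (chr3:37639697-37639946, plus strand), Spry2 (chr14:105896820-105897069, minus strand) and Dusp6 (chr10:99262981-99263230, plus strand) windows, which says only that these letters are not there. Over the 9 promoters, the full element was in 1, against 1.55% of 32851 promoters of the same length, the half-site in 3 (17.8%), the CArG box in 1 (1.47%) and the E-box in 2 (6.02%; Dusp1 and Dusp2). The AP-1 site (6.75% of all), the ETS core (12.0%) and TATAAA (12.4%) were in 0 of the 9. No motif of this set was in all 9 windows. The GC content of the 9 windows ran from 56.0% in Spred2 to 70.8% in Spred1, against a median of 52.4% over all promoters.

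Values are RMA intensities per probe set on a linear scale, and a difference is that of log2 values. With 1 array per group there is no replicate error: no test was made, each value has n = 1, and the 2-fold limit used for counting genes is only a rule of size. Where a gene has several probe sets the brightest on average stands for it, and levels were compared between arrays, never between genes. An intensity of 157, the median over all probe sets and arrays, served as the level filter, which a gene passed by reaching it on its highest array, as 12239 did. Of the 10 members 8 passed it, and all 8 were above it on every array, so none of them entered through a single high group. Spry4 and Dusp10 stayed under it on all 4 arrays. Fbxw7 itself, on its brightest probe set, read 1103 in Fbw7-deficient against 1355 in wild-type LSK cells and 958 in Fbw7-deficient against 691 in wild-type MP cells. Its other probe set read 216 against 203 in LSK, the opposite direction, and 174 against 128 in MP, where the wild-type value was under the level filter. Whether the Fbxw7 probe sets lie in the deleted part is not known, so Fbxw7 does not check the labels. Stem cell markers summed to 27998 and 56581 on the Fbw7-deficient and wild-type LSK arrays and to 8832 and 13565 on the corresponding MP arrays. The granulocyte-monocyte markers summed to 115661, 59275, 153270 and 155342 in that order of arrays. Late myeloid markers summed to 142029, 68903, 115643 and 103584 in the same order, and so were highest on the Fbw7-deficient LSK array. These sums describe the populations and do not check the sort. The wild-type LSK array stood apart in RNA quality, with a ratio of 3' to 5' Gapdh signal of 4.30, against 2.60 to 2.95 on the other 3 arrays, and of Actb of 3.53, against 2.67 to 2.99.

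All 8 measured members were lower in Fbw7-deficient than in wild-type cells, in LSK and in MP alike. In bulk RNA of sorted cells, fewer cells that express a gene and less RNA of it per cell cannot be told apart, and this holds for every difference given here. The median log2 difference was -0.80 in LSK, with members from -1.49 (Spry2) to -0.47 (Dusp2), and -0.53 in MP, from -1.08 (Dusp6) to -0.05 (Spred1). Over all 12239 genes the medians were 0.00 in both populations, and 31.1% of genes were below 0 in both. Wild-type LSK cells had the highest level of the 4 arrays for 8 of 8 members, as for 34% of all genes. Fbw7-deficient MP cells had in addition the lowest for 7 of 8, as the pair of conditions held for 21.7% of all genes; the exception was Spry2. These rules of order were chosen after the values were seen. The plot of intensities by array shows this order gene by gene.

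**Figure D1:**
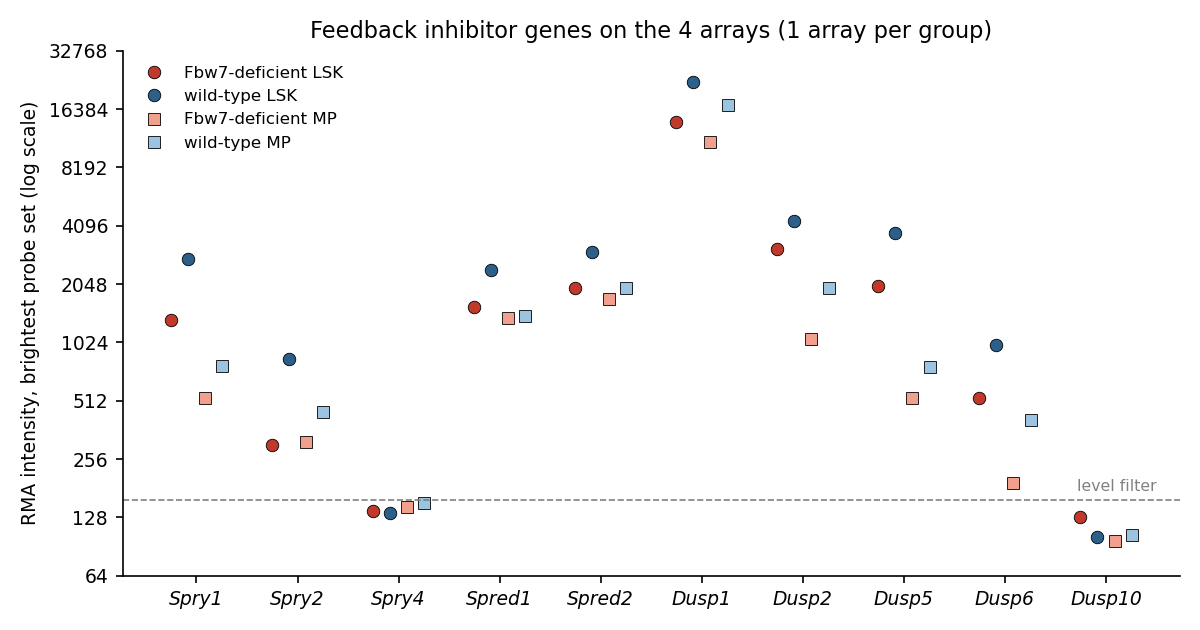
RMA intensity of each gene's brightest probe set on a log axis, with 1 point per array: circles are LSK and squares MP, red shades are Fbw7-deficient and blue shades wild-type. The dark blue circle (wild-type LSK) is the highest point of every gene above the dashed level filter of 157, and Spry4 and Dusp10 lie under the line on all 4 arrays.

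Spry2 and Spry1 reached 2-fold lower in Fbw7-deficient LSK cells, 2 of 8 members, against 1.95% of all genes. None (0 of 8) was 2-fold higher, against 1.79% of all genes. In MP cells 1 of 8, Dusp6, was 2-fold lower, against 1.49% of all genes, and 0 of 8 was 2-fold higher, against 0.825%. With 1 or 2 genes behind them these counts rest on how near a gene lies to the limit: Spry1 at log2 -1.04 and Dusp6 at log2 -1.08 are close to it, and each is under 2-fold with 1 alternative processing, as is Spry2 with both alternatives that draw on its other probe set.

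Among the Sprouty genes, which encode membrane-associated inhibitors of the receptor to RAS step, Spry1 (probe set 1415874_at) read 1343 in Fbw7-deficient against 2770 in wild-type LSK cells and 531 in Fbw7-deficient against 772 in wild-type MP cells. It was thus 2.06-fold lower in LSK and 1.45-fold lower in MP, and both MP values lay below both LSK values. Only 1.67% of genes had a lower difference in LSK. Spry2, the Sprouty member with the largest genotype difference, read 301 in Fbw7-deficient against 845 in wild-type LSK cells on probe set 1436584_at. In MP cells it read 314 in Fbw7-deficient against 449 in wild-type cells. The Spry2 level of Fbw7-deficient LSK cells was 2.81-fold lower than in wild-type LSK cells, a difference that 0.441% of genes exceeded downward, and lay close to that of Fbw7-deficient MP cells. Its other probe set, 1421656_at, read 131, 161, 164 and 164 in the order Fbw7-deficient LSK, wild-type LSK, Fbw7-deficient MP and wild-type MP, near the level filter throughout, and differed by log2 -0.29 in LSK and 0.00 in MP. The Spry2 difference past 2-fold therefore rests on 1 probe set. Spry4 was between 135 and 152 on the brightest of its 4 probe sets, with log2 differences of 0.03 in LSK and -0.07 in MP, and a level under the filter is not shown to be above background.

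The Spred genes encode the relatives of Sprouty that work with neurofibromin. Spred1 (1423160_at) read 1556 in Fbw7-deficient against 2416 in wild-type LSK cells and 1360 in Fbw7-deficient against 1406 in wild-type MP cells, a log2 difference of -0.63 in LSK and -0.05 in MP. Its 8 probe sets were all lower in Fbw7-deficient LSK cells, by log2 values from -0.79 to -0.03, and the 3 above the filter on every array ranged from -0.79 to -0.63. In MP those 3 ranged from -0.53 to -0.05, so the size of the MP difference depends on the probe set. Spred2 (1434403_at) read 1943 in Fbw7-deficient against 3006 in wild-type LSK cells and 1709 in Fbw7-deficient against 1958 in wild-type MP cells, with log2 differences of -0.63 and -0.20. Its 3 other probe sets above the filter on every array did not share the LSK difference, at log2 -0.10, -0.06 and 0.07, so for Spred2 it stands on the brightest probe set alone. Spred1 and Spred2 had the most alike profiles among the members, with a Euclidean distance of 0.14 between their mean-centred log2 values over the 4 arrays, where other pairs ranged from 0.31 to 1.74.

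**Figure D2:**
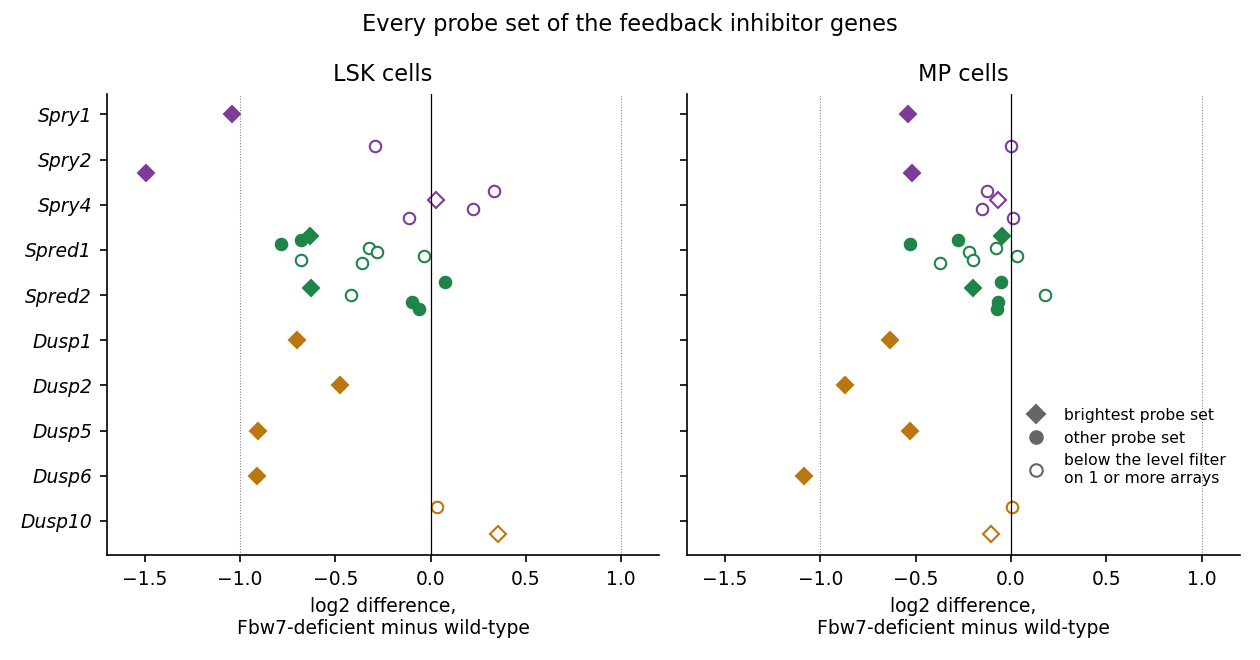
Each point is 1 of the 26 probe sets, placed at its log2 difference of Fbw7-deficient minus wild-type in LSK (left) and MP (right); diamonds are the brightest probe set of a gene and open symbols fell below the level filter on 1 or more arrays. The 3 filled Spred1 points in LSK lie together between -0.79 and -0.63, while those of Spred2 run from -0.63 to 0.07, and the probe sets of Spry4 and Dusp10 are all open.

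The phosphatase genes Dusp1, Dusp2, Dusp5 and Dusp6 each had 1 probe set. Dusp1, an immediate early gene whose product acts on p38, JNK and ERK, read 13996 in Fbw7-deficient against 22723 in wild-type LSK cells and 11035 in Fbw7-deficient against 17119 in wild-type MP cells on probe set 1448830_at. Its differences were log2 -0.70 in LSK and -0.63 in MP, the most even pair among the 8. Both Fbw7-deficient values of Dusp1 lay below both wild-type values, an order that Spry2 and Spred2 shared and the other 5 measured members did not. For Spred2 it rests on 1943 in Fbw7-deficient LSK against 1958 in wild-type MP cells. Spry2 probe set 1421656_at and Spred2 probe set 1423001_at lacked this order, while Spred2 probe sets 1441415_at and 1441802_at had it. It was picked after the values were seen, and its share over all genes was not counted. Dusp2, first known as an activation-induced phosphatase of lymphocytes, read 3116 in Fbw7-deficient against 4328 in wild-type LSK cells and 1070 in Fbw7-deficient against 1955 in wild-type MP cells on 1450698_at. Dusp2 thus had the smallest LSK difference of the 8 (log2 -0.47) and a larger one in MP (log2 -0.87).

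The 2 phosphatases dedicated to ERK differed in their balance between populations. Dusp5, the nuclear one, read 1998 in Fbw7-deficient against 3749 in wild-type LSK cells and 527 in Fbw7-deficient against 760 in wild-type MP cells on 1437199_at, with log2 differences of -0.91 and -0.53. Dusp6, the cytoplasmic one, read 526 in Fbw7-deficient against 990 in wild-type LSK cells and 193 in Fbw7-deficient against 408 in wild-type MP cells on 1415834_at. It was 1.88-fold lower in LSK and 2.12-fold lower in MP, the largest MP difference of the 8, with 1.16% of genes lower still. Dusp10, the JNK and p38 phosphatase, read 129 in Fbw7-deficient against 101 in wild-type LSK cells and 96.3 in Fbw7-deficient against 104 in wild-type MP cells on the brighter of its 2 probe sets, all under the filter.

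**Figure D3:**
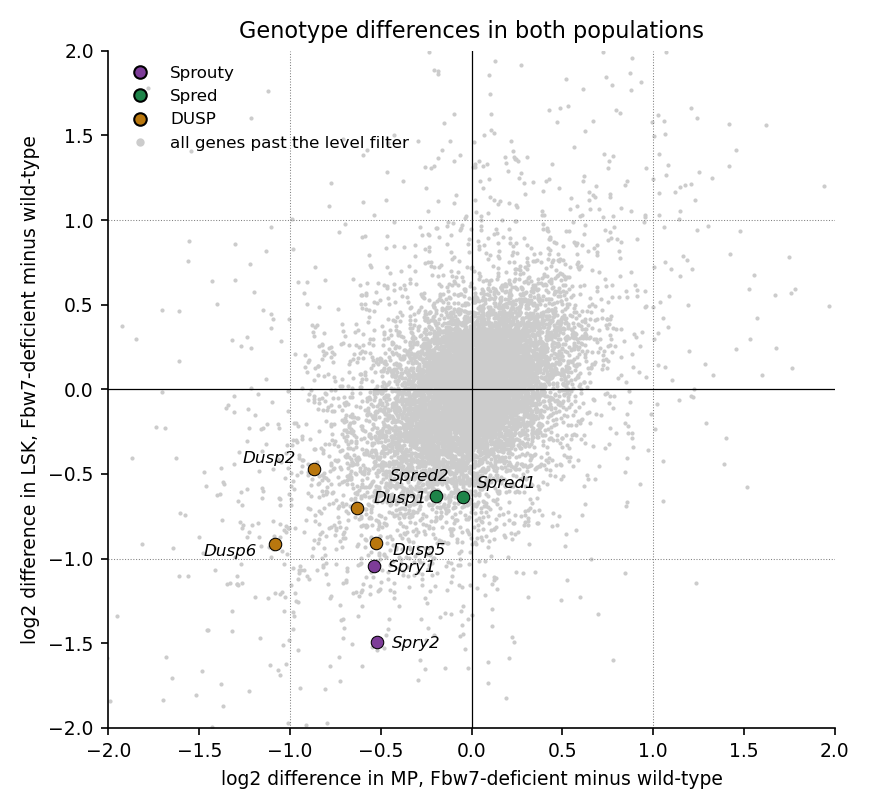
Log2 difference of Fbw7-deficient minus wild-type in MP (horizontal) and LSK (vertical) for 12239 genes (grey) and the 8 measured feedback inhibitors (coloured by family); dotted lines mark 2-fold, and 79 genes lie beyond the axes. All 8 coloured points are in the lower left field, with Spry2 lowest in LSK at -1.49 and Dusp6 lowest in MP at -1.08.

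The genotype difference in LSK minus that in MP was below 0 for 6 of 8 members, as for 50.0% of all genes. Its median was -0.41 against 0.00 over all genes. It was -0.97 for Spry2, -0.59 for Spred1, -0.50 for Spry1, -0.43 for Spred2, -0.38 for Dusp5 and -0.07 for Dusp1, and above 0 for Dusp6 (0.17) and Dusp2 (0.40). No member reached 2-fold on this scale: 0 of 8 was lower, against 1.32% of all genes, and 0 of 8 higher, against 2.2%. The order of the genes depends on the probe sets: with the mean of all probe sets Spred1 was at -0.26 and Spred2 at -0.18, and with the second probe set Spry2 was at -0.29 and Spred2 at 0.01, all above Dusp5. The difference between populations was not tested, having 1 array per group.

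The MP cells also show which of these genes are higher in the stem cell fraction, the use that the study's design gives them. Of the 8 members 4, Spry1, Dusp2, Dusp5 and Dusp6, were at least 2-fold higher in LSK than in MP cells of Fbw7-deficient marrow, against 3.86% of all genes. In wild-type marrow 4 of 8, the same genes, were 2-fold higher in LSK, against 5.05% of all genes. None was 2-fold lower in LSK, against 1.63% of all genes in Fbw7-deficient and 2.4% in wild-type marrow. Dusp5 had the widest gap, 3.79-fold in Fbw7-deficient and 4.93-fold in wild-type marrow, and that of Spry1 was 2.53-fold in Fbw7-deficient and 3.59-fold in wild-type marrow. The gap of Dusp2 was 2.91-fold in Fbw7-deficient and 2.21-fold in wild-type marrow, and that of Dusp6 was 2.73-fold and 2.42-fold in the same order. For Spry2 the log2 difference of LSK minus MP was -0.06 in Fbw7-deficient and 0.91 in wild-type marrow. For Spred1 it was 0.19 and 0.78, and for Spred2 0.19 and 0.62, again with Fbw7-deficient marrow first. These values hold for the brightest probe sets. In Fbw7-deficient marrow the other 2 Spred1 probe sets above the filter on every array gave 0.35 and 0.95, and the other Spry2 probe set gave -0.32. These LSK to MP differences share their arrays with the genotype comparisons above, so they are the same 4 values read another way.

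**Figure D4:**
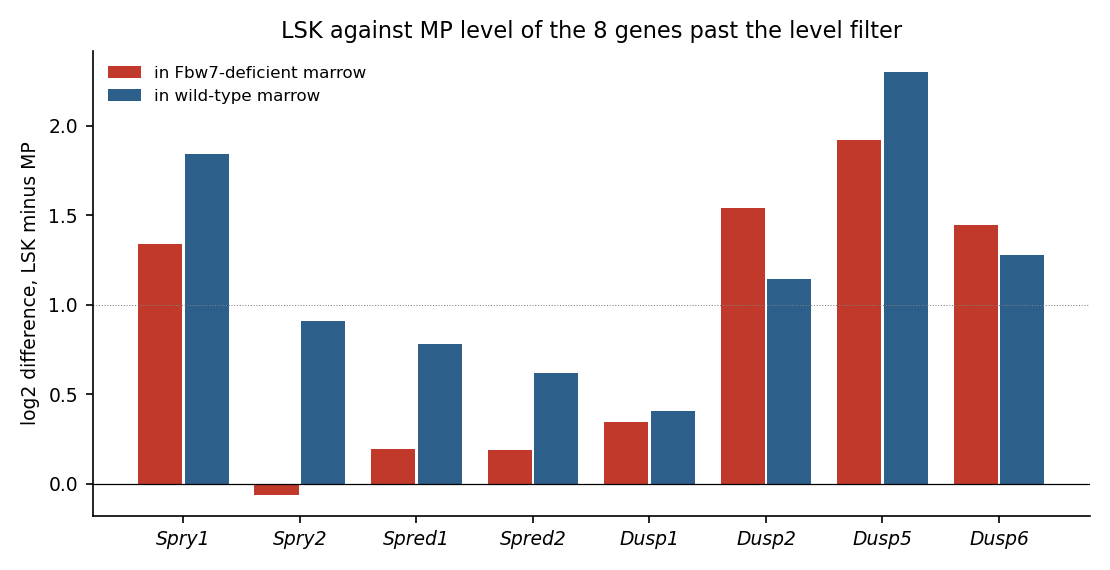
Log2 difference of LSK minus MP for the 8 genes past the level filter, in Fbw7-deficient marrow (red, left bar) and wild-type marrow (blue, right bar), 1 array per value; the dotted line marks 2-fold. Spry1, Dusp2, Dusp5 and Dusp6 pass the line in both genotypes, and the red bar of Spry2 is at -0.06.

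In Fbw7-deficient LSK cells 5 of 8 members (Spry1, Spred1, Dusp2, Dusp5 and Dusp6) lay below the wild-type LSK and above the wild-type MP level, as did 25.6% of all genes. The other 3 (Spry2, Dusp1 and Spred2) lay below the wild-type MP level, as did 47.3% of all genes, a reading also chosen after the values were seen. Markers of cell types also differed in this comparison. Of 14 measured stem cell markers all 14 were lower in Fbw7-deficient LSK cells (median log2 -1.11, 9 of them 2-fold). Hlf, for example, read 1677 in Fbw7-deficient against 5515 in wild-type LSK cells. Eya2, among the 9, read 59.1 against 186 and passed the level filter only through the wild-type LSK array. All 11 measured erythroid markers were higher (median 1.58), as were all 10 granulocyte-monocyte markers (median 1.04) and 10 of 11 late myeloid markers (median 1.43). In contrast, 7 of 8 megakaryocyte markers were lower (median -1.04). Over all genes 49.2% were below 0 and 50.7% above 0 in LSK, and 1.95% were 2-fold lower. Epb42 (60.7) and Rhag (101) were under the level filter in wild-type LSK cells, and Ppbp was under it on both LSK arrays. Summed erythroid marker intensity was 43377 in Fbw7-deficient against 20699 in wild-type LSK cells, and that of late myeloid markers 142029 against 68903. In MP cells the erythroid markers summed to 88279 in Fbw7-deficient against 58610 in wild-type cells, while granulocyte-monocyte markers, at 153270 against 155342, were nearly level in sum. A sum mostly reflects the brightest markers. Of the 10 granulocyte-monocyte markers 4 were below and 6 above 0 in MP (median 0.02). Csf1r (2410 in Fbw7-deficient against 5624 in wild-type) and Cebpa (706 against 1416) were 2-fold lower. Also in MP, 12 of 14 stem cell markers (median -0.44) and 8 of 8 megakaryocyte markers (median -0.41, 2 of them 2-fold) were lower in Fbw7-deficient cells. Over all genes 50.4% were below 0 in MP and 1.49% were 2-fold lower. Of the 2, Ppbp (77.9 in Fbw7-deficient against 348 in wild-type) passed the level filter only through the wild-type MP array. Of 15 named stem cell markers, 8 were under the filter on the Fbw7-deficient and 4 on the wild-type MP array. Lymphoid markers had a median of 0.13 in LSK, where 11 of 14 were above 0 and 2 of them 2-fold higher, against 1.79% of all genes. These 2 were Rag1 (749 in Fbw7-deficient against 221 in wild-type) and Ebf1 (220 against 94.8). Ebf1 passed the level filter only through the Fbw7-deficient LSK array. In MP the lymphoid median was -0.73, with 12 of 14 below 0 and 5 of them 2-fold lower. The 6 measured stromal and endothelial markers, where Cdh5, Col3a1 and Cxcl12 stayed under the level filter on all arrays, had medians of 0.49 in LSK and 0.23 in MP. In LSK these 6 went both ways, 3 above and 3 below 0, from Col1a2 (1413 in Fbw7-deficient against 288 in wild-type) and Fn1 (2842 against 644) to Pdgfrb (598 against 2919). No value was 0 on these arrays; Hba-a1, Gp6, Hoxb5 and Itgam were the other markers under the filter on all 4 arrays. The part of these shifts, and of the higher 3' to 5' ratio of the wild-type LSK array, in the lower level of the feedback inhibitors was not tested.

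The rest of the pathway was read from lists of related genes, beside the members' medians of -0.80 in LSK and -0.53 in MP. Of 30 genes known to be induced by ERK or with it, 29 were measured. In LSK their log2 differences had -0.48 as median, 4 genes were 2-fold lower and 23 below 0. Over all genes 1.95% were 2-fold lower and 49.2% below 0 in LSK. In MP the median was -0.61, 6 genes were 2-fold lower and 26 below 0, where the shares over all genes were 1.49% and 50.4%. None of the 29 was 2-fold higher in either population, against 1.79% of all genes in LSK and 0.825% in MP. In LSK the 4 were Klf6 (2924 in Fbw7-deficient against 10226 in wild-type), the nuclear receptor gene Nr4a1 (4437 against 10181), Klf10 (439 against 968) and Fosb (2024 against 4206), a component of AP-1. In MP they included Klf6 (1612 in Fbw7-deficient against 4607 in wild-type), Atf3 (462 against 1289), Egr1 (3335 against 7090) and Jun (3955 against 7989). The rest of the 6 were Btg2, at the limit with log2 -1.01, and Ccnd1, whose probe sets above the filter differed in sign. Klf6, Nr4a1, Atf3, Fosb and Jun also respond to stress kinases and to other signals, so the list is not a measure of ERK alone.

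Components of the pathway itself were read from a list for the cascade and one for receptors. Of the 20 measured genes of the cascade from GRB2 and RAS to the ERK-activated kinases, 13 were below 0 in LSK (median -0.09) and 8 in MP (median 0.08). Over all genes 49.2% were below 0 in LSK and 50.4% in MP. The only gene past 2-fold was the docking protein gene Gab1 in LSK, with 620 in Fbw7-deficient against 1317 in wild-type LSK cells, while in MP it read 1148 against 638. Among 16 measured receptors 11 were below 0 in LSK (median -0.20) and 14 in MP (median -0.30). In LSK 2 genes were 2-fold lower and 1 higher, against 1.95% and 1.79% of all genes. In MP 4 were 2-fold lower, against 1.49%. The angiopoietin receptor gene Tek read 169 in Fbw7-deficient against 450 in wild-type LSK cells. Pdgfrb, which encodes a receptor for platelet-derived growth factor, read 598 in Fbw7-deficient against 2919 in wild-type LSK cells and 166 against 937 in MP. Met, encoding the hepatocyte growth factor receptor, differed in opposite directions, with 1487 in Fbw7-deficient against 366 in wild-type LSK cells and 696 against 1941 in MP. The cytokine receptor genes Flt3 (521 in Fbw7-deficient against 1229 in wild-type) and Csf1r (2410 against 5624) were 2-fold lower in MP, while in LSK Csf1r read 4281 in Fbw7-deficient against 2567 in wild-type cells. Tek, Pdgfrb, Flt3 and Csf1r are also on the stem cell, stromal, lymphoid and granulocyte-monocyte marker lists.

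Phosphatase genes outside the chosen members did not follow them as a list. Members and lists were chosen with earlier results of these data known, so this contrast may depend on the choice. Of 19 other DUSP genes 13 were measured, with a median of 0.09 in LSK and 0.09 in MP. Of these 6 were below 0 in LSK, 4 were below 0 in MP and none was past 2-fold in either. Over all genes 49.2% were below 0 in LSK and 50.4% in MP. In LSK 1.95% of all genes were 2-fold lower and 1.79% higher, and in MP 1.49% and 0.825%. Dusp4, a close relative of Dusp1 and Dusp2 that is induced by ERK, came nearest, with 135 in Fbw7-deficient against 259 in wild-type LSK cells and 45.8 against 42.9 in MP. Both MP values of Dusp4 were under the level filter, as was its Fbw7-deficient LSK value. Dusp16 (log2 -0.70) and Dusp3 (-0.57) also had LSK differences within the range of the members, while 7 of the 13 were above 0. In MP Dusp16 was at 0.32 and Dusp3 at -0.42, and the Dusp3 probe sets above the filter differed in sign in both populations. The other brakes, such as RAS GTPase-activating proteins and SOCS proteins, numbered 21, of which 17 were below 0 in LSK (median -0.17) and 12 in MP (median -0.03), and none passed 2-fold. Some had differences as large as those of members: Rasal3 (log2 -0.94 in LSK and -0.87 in MP), Dab2ip (-0.94 and -0.26) and Rasa3 (-0.50 and -0.81). Above 0 were 4 of the 21 in LSK and 9 in MP. The 15 measured genes of the JNK and p38 branches, on which DUSP1 and DUSP10 act, had medians of -0.10 and -0.09 and none past 2-fold. Whether the members differ from these lists was not tested.

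**Figure D5:**
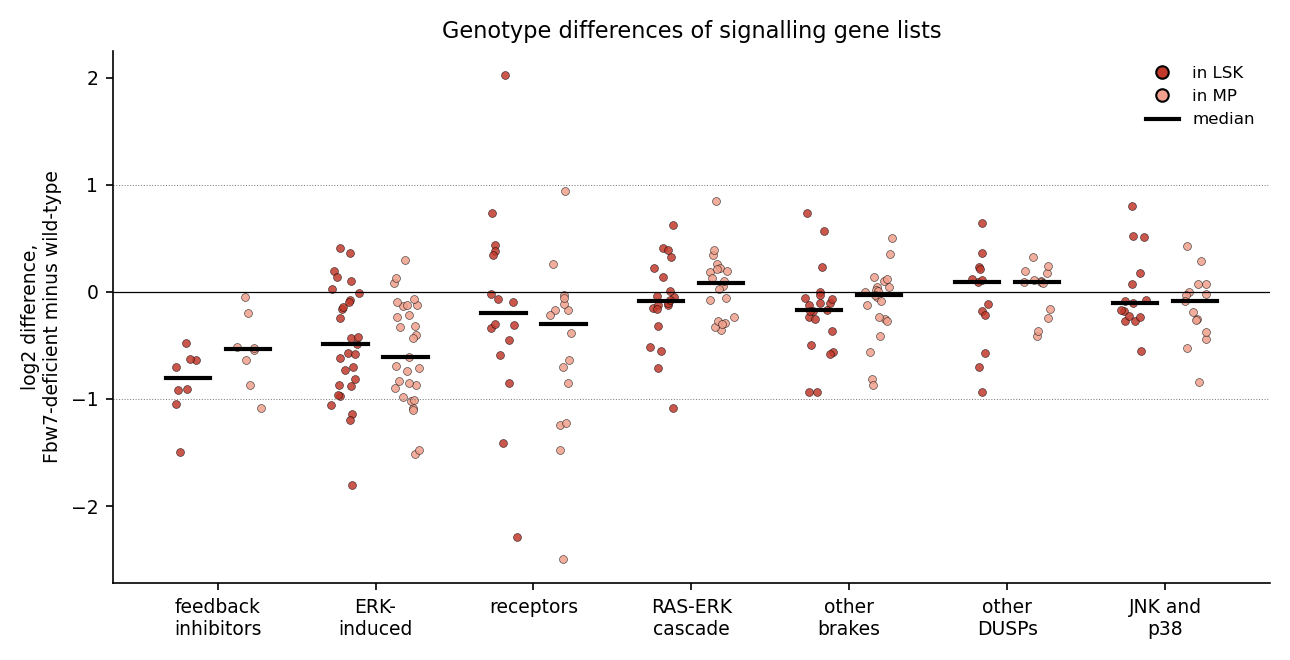
Log2 difference of Fbw7-deficient minus wild-type for each measured gene (points) of 7 lists, in LSK (dark red, left) and MP (light red, right), with the median as a black bar. The medians of the feedback inhibitors (-0.80 in LSK, -0.53 in MP) and of the ERK-induced genes (-0.48 and -0.61) lie below those of the other lists, which are between -0.30 and 0.09.

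For the 6 members whose 4 values span at least 2-fold, the genes with the most similar pattern were found by the Euclidean distance between mean-centred log2 profiles over the 4 arrays. Nearest to Spry1 were Ppp1r13b (distance 0.02), Tnfsf10 (0.03) and Retreg1 (0.10), and nearest to Spry2 were Peli2 (0.14), Arrdc4 (0.17) and Mxd4 (0.18). Dusp1 was closest to Crot (0.06), Dusp2 to Elk3 (0.09), Dusp5 to Rbpms (0.04) and Dusp6 to Lrrc49 (0.10). Lrrc49 passed the level filter only through the wild-type LSK array, with 90.8 in Fbw7-deficient against 163 in wild-type LSK cells and 35.1 against 71.4 in MP, so its pattern rests on levels not shown to be above background. Ppp1r13b, for example, read 2582 in Fbw7-deficient against 5383 in wild-type LSK cells and 1022 against 1469 in MP. With 4 arrays and 12239 genes many profiles lie close together, and the distances are a description only.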

How the data were processed

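Gene expression was measured in 4 samples, each pooled from 3 mice and labelled from 20 ng of total RNA with a 2-cycle protocol, per the labels' protocols. The authors deposited 1 intensity per probe set and array, not log-transformed. The submitters' processing notes name RMA; its version and settings were not given in the sources used here. Because RMA equalises the arrays, shifts shared by most genes are not seen, and small amplified inputs favour 3' ends. No depth applies to arrays, and their number (1 per group) limits the precision.

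Values were taken to log2 here. Of 45101 probe sets, 34945 name 1 gene, 932 several and 9224 none; for 34741 probe sets the gene ID matched RefSeq (GRCm38.p6), whose current symbol was then used. Each of 18193 genes was represented by its brightest probe set, and 12239 whose highest value reached the median of all values (157) were kept. Groups came from the titles. Differences between single arrays were described by size, counts and medians, without a test. The members and gene lists were chosen with earlier results of these data known. Named are all members, Fbxw7, up to 4 genes per list and comparison past 2-fold whose probe sets above the filter share a sign, and the 3 genes nearest in pattern to a member; fewer are printed. Hlf stands for the stem cell markers. Dusp3, Dusp4, Dusp16, Btg2 and Ccnd1 were named after their values were seen. Alternatives were other filters, other choices of probe set, quantile normalization, median centring and 32 added before log2. The steps were tested on simulated arrays with added shifts larger than any genotype difference of the members. That checks the calculation and not the precision at the sizes seen here. Python 3.11.15, pandas 2.3.3 and numpy 2.4.6 were used. Genes of the lists that the annotation used here does not name were not analysed here.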

Additional observations from a re-analysis of the deposited data

How the results depend on the processing

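The medians and the counts of members past 2-fold in each comparison, and each member's difference, were recomputed under 7 alternatives and under 1 added after seeing the data, each gene's second probe set. The count of members 2-fold lower in Fbw7-deficient LSK cells was 1 in place of 2 with the mean of all probe sets, with each gene's second probe set (both dropping Spry2, at log2 -0.89 and -0.29) and with arrays centred on their median (dropping Spry1, at -0.998). The count in MP was 0 in place of 1 with 32 added before log2 (Dusp6 at -0.97). With no level filter, which admits Spry4 and Dusp10, the median of LSK minus MP in Fbw7-deficient marrow was 0.38 in place of 0.84. With the second probe set, the median of the LSK minus the MP genotype difference was -0.18 in place of -0.41. The median over members stayed between -0.81 and -0.67 in the LSK and between -0.54 and -0.51 in the MP genotype comparison under all of these. No paired analysis was possible because each group has 1 array, which leaves the groups only 1 shared replicate number to serve as a block. LSK and MP cells of a genotype do share their pool; an additive fit of genotype and population, which takes the difference between populations as error, was not run. Arrays give no count of 0 or depth; levels under the filter, such as those of Spry4 and Dusp10, are not shown to be above background.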

Other observations

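Among brakes on cytokine signalling outside the members, Socs3, which encodes an inhibitor of JAK kinases, had the widest gap between populations. It read 2095 in Fbw7-deficient LSK against 276 in Fbw7-deficient MP cells and 2362 in wild-type LSK against 293 in wild-type MP cells, so it was 7.58-fold and 8.06-fold higher in LSK while its genotype differences were small. The RAS GTPase-activating protein gene Rasal3 read 1404 in Fbw7-deficient LSK against 476 in Fbw7-deficient MP cells and 2688 in wild-type LSK against 872 in wild-type MP cells. Of the transcription factors induced by ERK, Etv5 read 441 in Fbw7-deficient LSK against 127 in Fbw7-deficient MP cells and 593 in wild-type LSK against 229 in wild-type MP cells. Its Fbw7-deficient MP value was under the level filter and is not shown to be above background. Each value is from 1 array, and no difference was tested.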
